A study of Mus musculus with 10 samples.

Results

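Genes of the Wnt pathway were examined in the heart transcriptomes of wild-type and *Nos1ap* null mouse embryos: the Wnt ligands, the Frizzled receptors and their co-receptors, the secreted inhibitors of the pathway, and *Axin1*, *Axin2*, *Ctnnb1* and *Lef1*. Members were the protein-coding genes of the deposited table whose symbol is that of a Wnt, Fzd, Sfrp or Dkk gene, or is *Frzb*, *Lrp5*, *Lrp6* or one of the 4 genes just named. This rule, which uses names and no measured value, gave 40 of 16973 protein-coding genes, in a table of 23195 genes. They are 16 ligands, 10 receptors, 2 co-receptors, 8 secreted inhibitors and 4 intracellular components. *Wnt1*, *Wnt3a*, *Wnt8b* and *Dkk4* were not analysed here.

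The data are stranded polyA RNA-seq of whole hearts taken at embryonic day 13.5 from male embryos, 5 of genotype wildtype and 5 of genotype Nos1ap_null, strain C57BL6/J. The null embryos carried 2 copies of the tm1d allele, which lacks exon 4 of *Nos1ap* in every cell and from which the lacZ and neo cassettes had also been removed, with Flpe recombinase under the ACTB promoter and then Cre under the CMV promoter. The allele came from gene-targeted C57BL/6N embryonic stem cells. *Nos1ap* encodes an adaptor protein that binds neuronal nitric oxide synthase and the polarity protein Scribble. Since a whole heart holds cardiomyocytes, endocardium, epicardium, cushion mesenchyme and blood, fewer cells of a type and less RNA per cell cannot be told apart in these values.

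Wnt proteins are secreted, lipid-modified signals that bind Frizzled receptors on the cell surface. When the co-receptors Lrp5 or Lrp6 are engaged as well, the Axin complex that destroys β-catenin (encoded by *Ctnnb1*) is held in check, and β-catenin joins Tcf and Lef factors on DNA to switch on target genes such as *Axin2*. Other ligands, Wnt5a and Wnt11 among them, act largely without β-catenin, through planar cell polarity, which orients cells in a sheet. In the embryonic heart Wnt signals are known to act in the growth of the outflow tract, in the cushions that form the valves and in the specification of muscle cells.

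*Axin2* is the pathway's general feedback target, and *Wnt11* and *Wnt5b* were the members whose promoter held the core sequence bound by Tcf and Lef factors, so these promoters are shown first. The 250 bases before the transcription start were read from RefSeq's promoter table (GRCm38.p6), in which 26 of the 40 members have an entry, with 33 windows in all. They were searched on both strands for CTTTGAT, whose reverse complement is ATCAAAG and which overlaps no other motif searched. A match, given in capitals, was present in 2 of the 33 windows of the members and in 3.21% of all 32851 windows. The *Axin2* window lies at chr11:108920099-108920348 on the plus strand, the *Wnt11* window at chr7:98834862-98835111 on the plus strand and the *Wnt5b* window at chr6:119449387-119449636 on the minus strand. None of these windows overlaps an annotated exon.
Axin2: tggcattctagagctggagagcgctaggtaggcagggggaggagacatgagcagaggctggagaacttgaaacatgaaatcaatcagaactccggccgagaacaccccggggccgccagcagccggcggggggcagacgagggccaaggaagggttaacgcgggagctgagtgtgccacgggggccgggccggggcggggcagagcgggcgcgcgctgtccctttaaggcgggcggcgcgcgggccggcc
Wnt11: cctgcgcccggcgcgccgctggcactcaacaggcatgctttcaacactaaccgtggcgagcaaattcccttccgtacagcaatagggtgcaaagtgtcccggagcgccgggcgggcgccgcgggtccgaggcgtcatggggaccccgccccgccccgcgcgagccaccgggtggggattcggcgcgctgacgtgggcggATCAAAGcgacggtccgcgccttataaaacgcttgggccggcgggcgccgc
Wnt5b: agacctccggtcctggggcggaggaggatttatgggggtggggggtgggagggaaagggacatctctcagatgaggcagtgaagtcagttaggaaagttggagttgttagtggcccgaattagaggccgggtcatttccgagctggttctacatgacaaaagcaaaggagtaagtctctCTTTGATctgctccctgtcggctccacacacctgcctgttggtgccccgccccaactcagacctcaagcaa
The match begins 51 bases before the start in *Wnt11* and 71 bases before the start in *Wnt5b*. The window of *Axin2* holds no match, which says only that these letters are not in it. The *Wnt5b* window precedes 1 of the 3 starts that the table lists for this gene. A further *Wnt11* window, at chr7:98838595-98838844, holds no match.

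The deposited table gives the mean normalized count of each genotype, that is, the mean over libraries of the read count after division by the library's size factor. Whole counts of the single libraries were recovered from the digits of these means, for 98.7% of the wild-type and 99.1% of the null means under 1000. Recovered libraries were numbered from 1 to 5 within each genotype by falling size factor, so they do not stand for the replicates that the labels number. Of the 40 members, 23 could be tested, with counts recovered and a mean over both genotypes of 10 or more. Another 8 of high expression (*Wnt5a*, *Fzd1*, *Fzd2*, *Lrp5*, *Sfrp1*, *Sfrp2*, *Dkk3* and *Ctnnb1*) have the authors' means only, with no spread. The other 9 (*Wnt3*, *Wnt6*, *Wnt7a*, *Wnt7b*, *Wnt8a*, *Wnt10a*, *Wnt10b*, *Dkk1* and *Sfrp4*) had a mean under 10 and were not tested.

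Read pairs assigned to the genes given here, estimated from their summed means and the size factors, were 11328233 to 14023004 per library. This is not the sequencing depth. *Nos1ap* itself checked the labels: its normalized count was 126 to 161 in the wild-type and 31.1 to 44.4 in the null libraries, a log2 difference of -1.83 ± 0.12 (SE; limma adjusted p = 9.77e-09). Markers of cardiomyocytes, endothelium, epicardium and cushion mesenchyme were all in the table, 24 of 24, the cardiomyocyte myosin gene *Myh7* at a wild-type mean of 128160. Wild-type library 3 stood apart. Its summed level over 8 neuronal and glial markers with recovered counts was 2215, against 221 to 263 in the other wild-type and 209 to 253 in the null libraries, and its sum over 6 epithelial markers was 68.2 against 8.10 to 18.6 in the other 9. These 6 come from a list of 9 for lung epithelium, of which *Nkx2-1*, *Sftpc* and *Cldn18*, the genes that define it, had no value here, so the sum does not mark lung. *Sox2* held 25.4 of the 68.2, and *Sftpb* was 0 in wild-type library 3. Null library 2 stood apart in cartilage markers. Its sum over the 3 of 7 listed genes with recovered counts was 244, against 484 to 577 in the other null libraries.

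No member passed the thresholds used in the study, a false discovery rate of 1% and an absolute log2 fold change over 1, where 0.029% of the 10349 genes tested passed (limma, Benjamini-Hochberg adjusted over these genes). At an unadjusted p under 0.05, 0 of the 23 members and 3.54% of all genes passed. Limma with voom weights gave 0 members by both rules as well. The smallest limma p of a member was 0.0999 (*Fzd5*), and the smallest adjusted p was 0.998. The libraries of the genotypes overlapped for every member tested, while they did not overlap for 0.783% of all genes. The estimate was higher in the null hearts for 10 members and lower for 13, and the median log2 fold change was -0.0078, against -0.0044 over all genes tested. The median absolute log2 fold change was 0.07 for the members and 0.06 for all genes.

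These data also bound how large a difference could have been missed. The 95% interval of the log2 fold change lay within 0.5 of 0 for 20 of the 23 members and within 0.2 of 0 for 7. Over the 23 members, the lowest bound was a fold of 0.698 (*Wnt16*) and the highest a fold of 1.55 (*Fzd10*). Nothing in the labels says whether the embryos of a group shared a litter, so the p-values measure the spread between these libraries only.

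**Figure D1:**
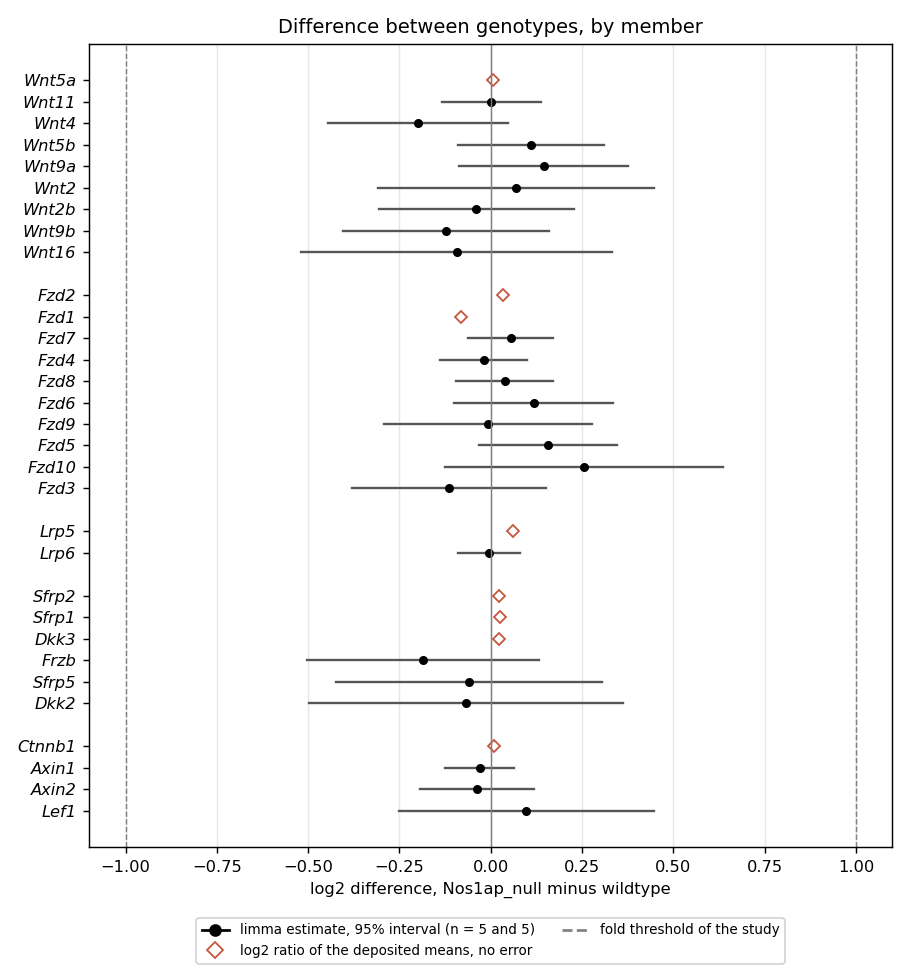
Log2 difference of Nos1ap_null minus wildtype for the 31 members with a mean of at least 10, by role. Black points with lines are limma estimates with 95% intervals (5 libraries per genotype), open diamonds are log2 ratios of the deposited means and have no error, and dashed lines mark the fold threshold of the study; every interval includes 0, and estimates run from -0.20 (*Wnt4*) to 0.26 (*Fzd10*).

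Among the ligands, *Wnt5a* had the highest level per length. Levels are compared between genes as normalized counts per kb of merged exon length (GENCODE M21), in the wild-type hearts unless stated. By this measure *Wnt5a*, a ligand of β-catenin-independent signalling needed for outflow tract growth, stood at 146 per kb and made up 36.7% of the sum over the 16 ligands. *Wnt11*, which acts in the same branch, followed at 59.1 ± 4.21 per kb (SD, n = 5), then *Wnt4* at 47.1 ± 7.96 and *Wnt5b* at 45.1 ± 5.21. The ranges of *Wnt11* and *Wnt4* over all 10 libraries did not overlap, whereas those of *Wnt4* and *Wnt5b* did. *Wnt9a*, *Wnt2*, *Wnt2b* and *Wnt9b* lay between 19.6 and 23.7 per kb, each overlapping the next, and *Wnt16* stood below them at 10.2 ± 2.72.

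The deposited mean of *Wnt5a* was 1140 in the wild-type and 1144 in the null hearts, a log2 ratio of 0.0058. *Wnt11* lies at chr7:98835112-98855195 on the plus strand of GRCm38 (GENCODE M21, as for the further gene positions given here). Its normalized counts were 245, 245, 271, 222 and 241 in wild-type libraries 1 to 5 and 236, 238, 260, 246 and 243 in null libraries 1 to 5. The null values lay inside the wild-type range. Both means were 244.6, and the log2 fold change was 0.0020 ± 0.07 (SE; limma adjusted p = 0.999), with a 95% interval of -0.13 to 0.14.

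*Wnt4* (chr4:137277489-137299726, plus strand), known for its part in the formation of kidney and gonad, had normalized counts of 224, 141, 211, 193 and 218 in the wild-type libraries and 160, 209, 168, 159 and 157 in the null libraries. In 4 wild-type libraries *Wnt4* lay above 4 null libraries, with wild-type library 2 and null library 2 on the opposite sides. Its log2 fold change was the lowest of the members at -0.20 ± 0.12 (SE; limma p = 0.107, adjusted p = 0.998; exact two-sided permutation p = 0.183, where the smallest possible is 0.00794). *Wnt4* had an unadjusted p under 0.05 without wild-type library 2 and without null library 2, where 4.59% and 5.60% of all genes passed, with a lowest estimate of -0.31, and an adjusted p under 0.01 in neither case.

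The other ligands tested had log2 fold changes from -0.12 (*Wnt9b*) to 0.14 (*Wnt9a*). *Wnt2*, a ligand of heart and lung mesoderm chosen after its values were seen, was unevenly spread within the wild-type group, with 67.9 in library 1 and 32.0 to 49.7 in the other 4. It was 36.3 to 57.7 in the null libraries, so the groups overlapped widely. The 7 ligands under a mean of 10 were near the limit of detection. *Wnt6*, *Wnt7a* and *Wnt7b* held 15 to 28 reads in all over the 5 libraries of a genotype, *Wnt10b* held 9 and 8, and *Wnt8a* and *Wnt10a* held 1 or 2. Of the 8 reads of *Wnt3* in the wild-type hearts, 7 came from wild-type library 3, the library with high neuronal and glial markers, and the null hearts held 1.

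**Figure D2:**
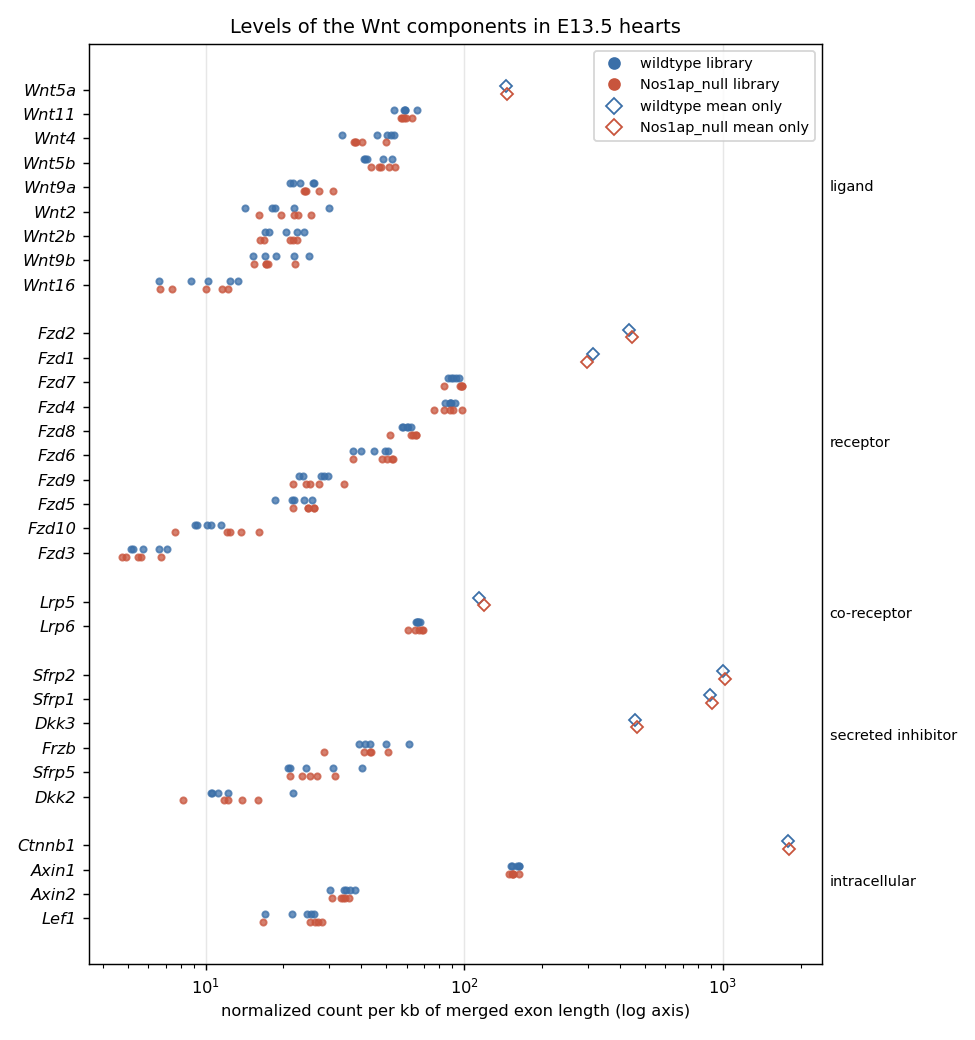
Normalized counts per kb of merged exon length (log axis) for the 31 members with a mean of at least 10, ordered by role and level. Points are single libraries (5 wildtype in blue, 5 Nos1ap_null in red), and open diamonds are group means of the 8 members without recovered libraries; *Wnt5a*, *Fzd2*, *Lrp5*, *Sfrp2* and *Ctnnb1* lead their roles.

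The receptors were led by *Fzd2* and *Fzd1*. *Fzd2* stood at 435 per kb and *Fzd1* at 316, together ahead of *Fzd7* at 90.9 ± 3.47 and *Fzd4* at 88.2 ± 2.80, whose ranges overlapped. *Fzd2* alone made up 39.6% of the sum over the 10 receptors. *Fzd8* (59.7 per kb) lay below *Fzd4* in every library, and *Fzd6* (44.4), *Fzd9* (26.7), *Fzd5* (22.4), *Fzd10* (10.1) and *Fzd3* (5.96) followed. From *Fzd4* down this order, *Fzd8* overlapped *Fzd6*, and *Fzd9* overlapped *Fzd5*, while the remaining neighbours were separate. *Fzd2* and *Fzd1* have no library values, so their ranges could not be compared.

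*Fzd7* (chr1:59482424-59486955, plus strand), a receptor of early mesoderm, was the only receptor among the leading 3 with recovered counts. Its normalized counts were 431, 422, 411, 391 and 403 in the wild-type and 444, 378, 439, 436 and 445 in the null libraries. The ranges of the genotypes overlapped. Apart from null library 2, set aside after the values were seen, the null libraries lay above every wild-type library. How often other genes separate when an outlying library is set aside was not tested. The log2 fold change of *Fzd7* was 0.05 ± 0.06 (SE; limma adjusted p = 0.998; exact two-sided permutation p = 0.286). With single libraries left out it ran from 0.04 to 0.10, the highest without null library 2. *Fzd2* had deposited means of 1592 and 1629 in wild type and null, and *Fzd1* 1326 and 1253, log2 ratios of 0.03 and -0.08.

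The remaining receptors were singled out after their values were seen. *Fzd5*, a receptor for β-catenin-dependent ligands, ranged from 128 to 179 in the wild-type and from 151 to 182 in the null libraries, a log2 fold change of 0.16 ± 0.09 (SE; limma adjusted p = 0.998; exact two-sided permutation p = 0.127). *Fzd10* had the highest estimate of the members, 0.26 ± 0.18 (limma adjusted p = 0.998), at a level of 29.5 to 37.4 in the wild-type and 24.7 to 52.3 in the null libraries. Both receptors passed an unadjusted p of 0.05 when a single library was left out, *Fzd5* without wild-type library 2 or null library 1, where 4.59% and 3.30% of all genes passed, and *Fzd10* without null library 4, where 3.27% passed. *Fzd8* stood at 310 in null library 2 and at 372 to 390 in the other null libraries, against 344 to 372 in the wild type. The groups overlapped, with a log2 fold change of 0.04 ± 0.06 (SE; limma adjusted p = 0.998; exact two-sided permutation p = 0.556).

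The co-receptors differed little between genotypes. *Lrp5* stood at 114 per kb and *Lrp6* at 66.2 ± 0.94. *Lrp6* lies at chr6:134446476-134566965 on the minus strand. Its normalized counts were 887, 906, 900, 906 and 923 in the wild-type and 911, 829, 951, 936 and 885 in the null libraries. The wild-type libraries lay within the range of the null libraries, whose lowest value was again library 2. The log2 fold change of *Lrp6* was -0.0048 ± 0.04 (SE; limma adjusted p = 0.998), the narrowest interval of the members at -0.09 to 0.08. For *Lrp5* the deposited means were 1111 and 1158, a log2 ratio of 0.06.

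The leading 3 secreted inhibitors stood higher per length than any ligand or receptor. *Sfrp2*, a decoy that binds Wnt proteins before they reach the receptor, stood at 1002 per kb, its relative *Sfrp1* at 895 and *Dkk3*, a divergent Dickkopf protein, at 457. These 3 have the authors' means only, with log2 ratios of 0.02 each. The means were 2157 and 2192 for *Sfrp2*, 3914 and 3981 for *Sfrp1*, and 1536 and 1561 for *Dkk3*, wild type first. *Frzb* (47.0 per kb), also a decoy, *Sfrp5* (27.6) and *Dkk2* (13.2), which binds Lrp6, followed, each overlapping the next. *Dkk1*, a ligand of Lrp6 that blocks it, and *Sfrp4* were near the limit of detection, with 25 and 24 reads in the wild-type and 22 and 12 in the null hearts.

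The 3 inhibitors tested had log2 fold changes of -0.19 ± 0.15 (*Frzb*), -0.07 ± 0.20 (*Dkk2*) and -0.06 ± 0.17 (*Sfrp5*), each with a limma adjusted p of 0.998. *Dkk2*, chosen after its values were seen, had normalized counts of 39.1, 38.7, 80.4, 45.4 and 41.4 in the wild-type and 51.3, 30.2, 45.4, 59.1 and 43.6 in the null libraries. A single library, wild-type library 3, carried the high wild-type value, and without it the log2 fold change of *Dkk2* was 0.12. In the same library *Sfrp5*, an inhibitor known from the sinus venosus, was highest of the wild-type group at 76.3 and *Sfrp4* was highest at 10.2. Whether the RNA behind the high marker sums of this library had a part in these values was not tested.

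Across the 8 members with the authors' means only, log2 ratios ran from -0.08 (*Fzd1*) to 0.06 (*Lrp5*). Their median absolute log2 ratio was 0.02, against 0.03 for the 2583 protein-coding genes with both means of at least 1000, of which 90% lay under 0.07. *Fzd1* alone lay past that value. These means carry no error, so no test was made.

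Of the intracellular components, *Ctnnb1* stood at 1791 per kb, *Axin1* at 158 ± 5.43, *Axin2* at 34.7 ± 2.76 and *Lef1* at 23.0 ± 3.81. The ranges of *Axin1*, *Axin2* and *Lef1* over the 10 libraries did not overlap by this measure. The order of *Axin2* and *Lef1* rests on the length used: per kb of the longest transcript *Lef1* stood at 55.3 and *Axin2* at 44.8. The deposited mean of *Ctnnb1* was 9299 in the wild-type and 9361 in the null hearts, a log2 ratio of 0.0095. *Axin1* (chr17:26138688-26195811, plus strand), the constitutive scaffold of the complex that destroys β-catenin, had normalized counts of 622, 580, 623, 613 and 585 in the wild-type and 587, 625, 569, 589 and 589 in the null libraries. These ranges overlapped, with a log2 fold change of -0.03 ± 0.04 (SE; limma adjusted p = 0.998).

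*Axin2* and *Lef1* are both direct targets of β-catenin and the members closest to a readout of its activity. *Axin2* (chr11:108920349-108950783, plus strand) had normalized counts of 167, 189, 208, 199 and 191 in the wild-type and 197, 183, 170, 190 and 187 in the null libraries. All null values lay inside the wild-type range, and the log2 fold change was -0.04 ± 0.07 (SE; limma adjusted p = 0.998), with a 95% interval of -0.19 to 0.12. *Lef1* (chr3:131110471-131224356, plus strand), which encodes one of the DNA-binding partners of β-catenin, had 150, 226, 216, 189 and 231 in the wild-type and 222, 147, 247, 238 and 232 in the null libraries. Wild-type library 1 and null library 2 held the lowest values, at about the same level, while 4 null libraries reached 222 to 247. The log2 fold change of *Lef1* was 0.10 ± 0.16 (SE; limma adjusted p = 0.998).

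The ratio of *Lef1* to *Axin2* within a library, taken after adding 1 to each normalized count, depends only slightly on the size factor. Its log2 value was 0.07 ± 0.19 (SD, n = 5) in the wild-type and 0.20 ± 0.32 (SD, n = 5) in the null hearts, a difference of 0.14 (exact two-sided permutation p = 0.437). The null ratios ran from -0.32 to 0.53 and enclosed the wild-type range of -0.16 to 0.27. Without null library 2, which held the lowest null ratio, the difference was 0.27, with no test made. Wild-type library 1 held the lowest wild-type ratio, and the difference without it is not given here. *Sfrp1* to *Fzd2* and *Wnt2b* to *Wnt5a*, also planned as ratios, could not be computed, because 3 of these genes have means only.

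**Figure D3:**
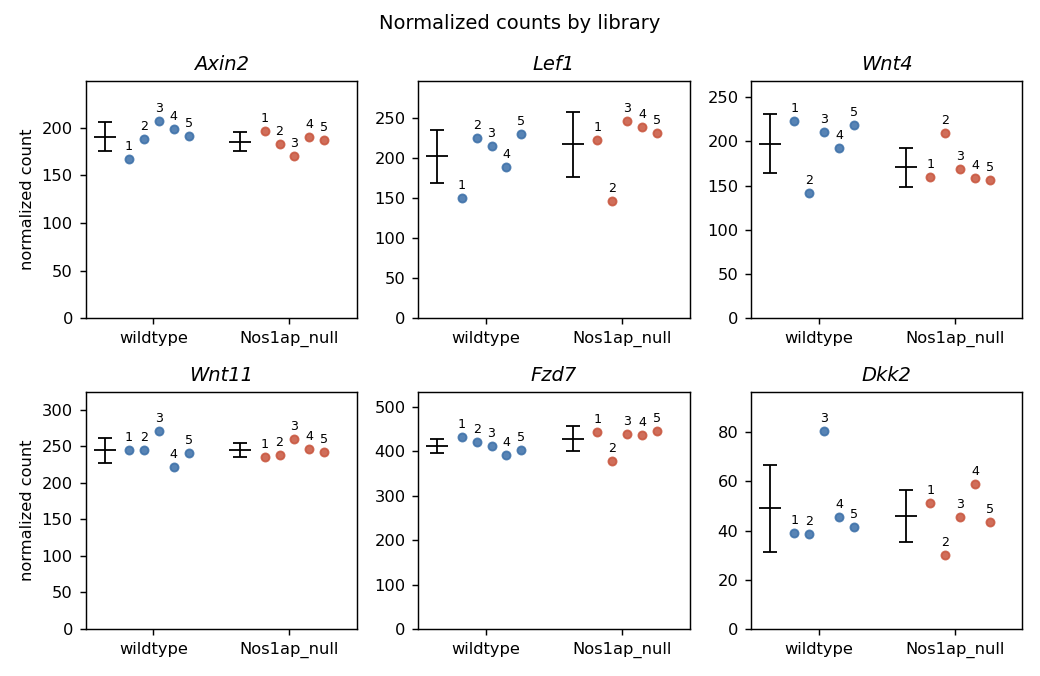
Normalized counts of *Axin2*, *Lef1*, *Wnt4*, *Wnt11*, *Fzd7* and *Dkk2* in 5 wildtype and 5 Nos1ap_null libraries, from 0. Points are libraries with their number, and the bar to the left of each group is the mean with its SD; null library 2 is low in *Lef1* (147) and *Fzd7* (378) and high in *Wnt4* (209), and wild-type library 3 is high in *Dkk2* (80.4).

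Several members stood apart in single libraries. Null library 2 was the lowest of its group for 12 of the 23 members tested and the highest for 5, where over all genes tested it was lowest for 27.4% and highest for 27.0%. Its median absolute deviation from the group median was 0.20 over the members, on the log2 scale, and 0.09 over all genes. The members also deviated more than all genes in wild-type library 1 (0.15 against 0.08) and wild-type library 4 (0.13 against 0.05). *Frzb* stood at 92.5 in null library 2, against 132 to 164 in the other null libraries. *Fzd6*, whose protein is a receptor of planar cell polarity in hair and skin, stood at 179 in it and at 231 to 255 in the others. Beside cartilage markers, the sum of the 3 of 6 cushion and valve mesenchyme markers with recovered counts was lowest there, 603 against 706 to 875. Of these, *Prrx1* stood at 210 against 301 to 350 in the other null libraries. *Twist1* stood at 342 against 345 to 436, and *Scx* at 51.3 against 60.3 to 89.7. The sum of the 4 of 6 epicardial markers with recovered counts was 1768 within 1600 to 1780. The part of these cells in the values of the members was not tested.

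Without null library 2, *Fzd6*, *Lef1* and *Wnt4* had an unadjusted p under 0.05, where 5.60% of all genes passed, and the log2 fold change of *Lef1* was 0.23. Without both null library 2 and wild-type library 3, *Lef1* and *Wnt4* did, where 5.79% of all genes passed. No member had an adjusted p under 0.01 in any of these fits.

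**Figure D4:**
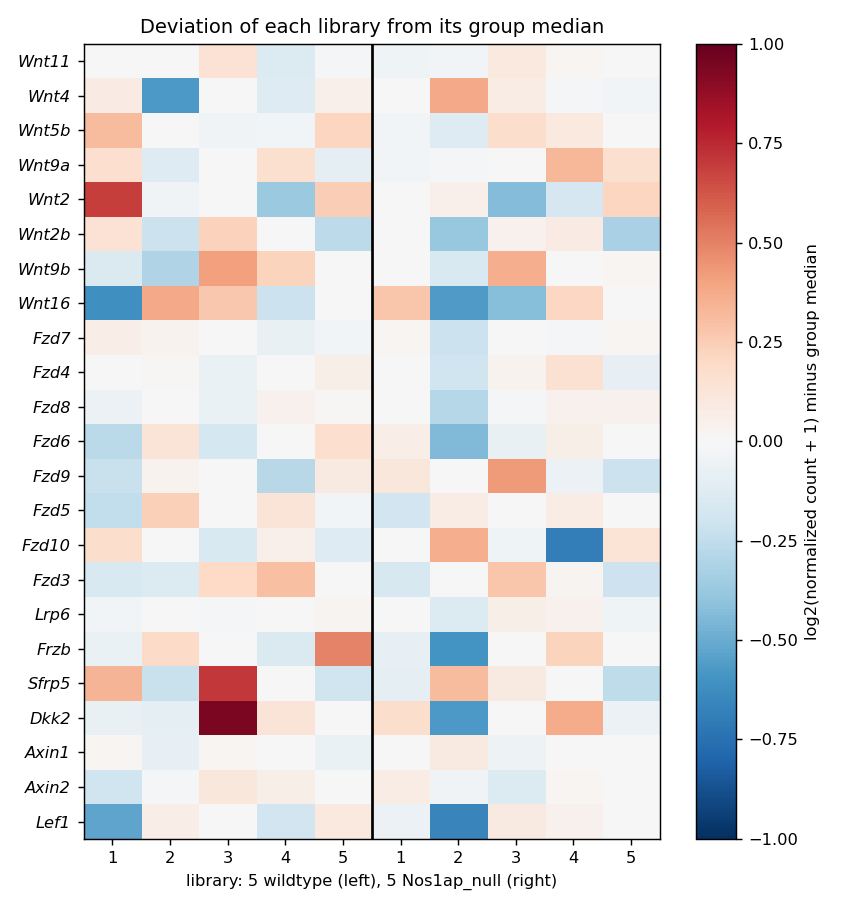
Deviation of each library from the median of its genotype, as log2(normalized count + 1), for the 23 members tested (rows) in 5 wildtype (left) and 5 Nos1ap_null libraries (right). Red is above and blue below the group median; null library 2 is the lowest of its group in 12 of 23 members, and *Lef1* and *Wnt16* are low in both null library 2 and wild-type library 1.

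The rest of the pathway was read from a list of 76 genes outside the members, of which 73 were in the table, 43 were tested, 26 have means only and 4 had a mean under 10. An unadjusted p under 0.05 was reached by 3 of the 43, against 3.54% of all genes, and the smallest adjusted p was 0.998 (limma). None changed by the thresholds of the study. Of the secreted and extracellular modulators, 1 of 8 tested reached it, *Sost*, an Lrp5 and Lrp6 antagonist known from bone. Its values were 69.3 to 90.5 in the wild-type and 78.4 to 128 in the null libraries, a log2 fold change of 0.28 ± 0.13 (SE; exact two-sided permutation p = 0.0794). It no longer reached an unadjusted limma p of 0.05 when any of 5 single libraries was left out, with a lowest estimate of 0.19 without null library 4. Co-receptors and receptor turnover genes gave 0 of 6, with *Lgr6*, a receptor for R-spondins, furthest from 0 at -0.23.

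Intracellular transduction genes gave 1 of 8. *Dact1*, a regulator of Dishevelled, had normalized counts of 579 to 688 in the wild-type and 512 to 601 in the null libraries, a log2 fold change of -0.15 ± 0.06 (SE; limma adjusted p = 0.998; exact two-sided permutation p = 0.0397). Without wild-type library 3 or null library 2 it was -0.11 and no longer reached an unadjusted p of 0.05. The estimate furthest from 0 in this role was that of *Apc2*, a relative of *Apc*, at -0.36, with 303 in wild-type library 3 and 64.9 to 91.8 in the other 9 libraries. Nuclear factors gave 0 of 8, with *Pygo2*, a partner of β-catenin, at -0.10.

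Planar cell polarity, the branch that shares Scribble with NOS1AP, gave 0 of 9. Their median log2 fold change was 0.02, and *Vangl2*, a core component, stood at -0.02. *Celsr3* had the largest estimate, -0.59, with 145 in wild-type library 3 and 1.94 to 9.29 in the other 9, and it turned to 0.43 without that library. Of the other targets 1 of 4 reached p under 0.05: *Isl1*, a second heart field factor that is also made in sympathetic neurons, had 60.9, 53.2, 125, 50.6 and 72.4 in the wild-type and 45.9, 40.2, 45.4, 55.8 and 40.3 in the null libraries. Wild-type library 3 was the highest, and the groups overlapped. The log2 fold change of *Isl1* was -0.59 ± 0.20 (SE; limma adjusted p = 0.998; exact two-sided permutation p = 0.0238). Without wild-type library 3 it was -0.37, with an unadjusted limma p still under 0.05.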

How the data were processed

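PolyA stranded RNA-seq libraries of 10 hearts were made by the authors, who used Trimmomatic 0.36 for trimming and STAR within RSEM 1.2.31 for alignment to GENCODE M10 transcripts (GRCm38) and compared gene counts with DESeq 1.24.0. The deposited signal values are group means of counts divided by size factors, to 15 significant digits. The fold ratios, log2 fold changes and p-values in the deposited table are the authors' own comparison and were not used. Which of the mean columns is wild type was taken from the methods and checked on *Nos1ap*.

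Whole counts per library were recovered by a lattice search of sets of counts that give each mean under 1000 to within 0.6 units of its last digit. Below a mean of 200 all sets were searched. Above it the set nearest to equal normalized counts was taken, where at most 0.01 others were expected as near. Genes uneven between libraries were therefore less likely to be settled above 200. *Nefm*, *Nefl* and *Tubb3*, with wild-type means of 311, 221 and 242, have no library values. Size factors recomputed from these counts differed from the derived ones by at most 0.85%, which is no independent check for means above 200. Where no set was settled, no library values are given, and means of 1000 or more were not searched. Protein-coding genes with a mean of at least 10 were fitted with limma 3.58.1 (R 4.3.3; trended and robust moderation) on log2(normalized count + 1), and p-values were Benjamini-Hochberg adjusted over all of them. Single members were also compared by an exact permutation test over libraries (scipy 1.17.1). Both the search and the fit were run on simulated data, with outcomes that are not given here.

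Library values were given for members among the 3 most abundant per kb of their role, with p under 0.05, with an absolute log2 fold change over 0.3, or that are direct targets (*Axin2*, *Lef1*). Pathway genes were named where p was under 0.05 or the estimate was the largest of its role, and any other gene named, *Vangl2* and the marker genes included, was picked with its values in view. The members and lists were chosen with earlier results of these data known. Alternatives changed the pseudocount, the filter, the scaling, the weights (voom), the genes fitted, the thresholds, the gene length and the libraries. Gene lengths came from GENCODE M21 on the same build, so lengths may differ from the authors' release.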

Additional observations from a re-analysis of the deposited data

Results flagged for a closer look

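For 10 of the 64 sets of 5 library values examined (32 members with recovered counts in each genotype), 1 library lay far from the other 4 by Dixon's criterion. Chance gives about 1 in 20 for continuous values, a rate that does not hold for counts near 0, where 1 read among libraries at 0 always stands apart. Null library 2 accounts for 4 of them. It was the lowest of its group in *Lef1* (147, others 222 to 247), *Fzd7* (378, others 436 to 445) and *Fzd8* (310, others 372 to 390), and the highest in *Wnt4* (209, others 157 to 168). Wild-type library 3 was the highest in *Dkk2* (80.4, others 38.7 to 45.4) and in *Wnt3* (7.13, others 0 to 0.968). The remaining 4 sets rest on single reads, with *Wnt3* at 1.07 in null library 4, *Wnt8a* at 1.03 in wild-type library 5 and at 0.90 in null library 1, and *Wnt10a* at 0.968 in wild-type library 2.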

How the results depend on the processing

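No member passed the thresholds of the study under any alternative, a false discovery rate of 0.05 without a fold threshold and genes of all types included, and the smallest adjusted p of a member over all fits was 0.839. Of 176 alternative values, 160 stayed within the tolerance set for them, which is 1.5 times for a count, the same sign for a log2 fold change and a shift of 0.0527 for the median of the members, the SD between libraries. The sign of that median was not fixed, at -0.025 to 0.026 when a single library was left out. The number of members with an unadjusted p under 0.05, 0 with all libraries, ran from 0 to 3 when a single library was left out: 3 without null library 2 (5.60% of all genes), 2 without wild-type library 2 (*Fzd5*, *Wnt4*; 4.59%), 1 without null library 1 (*Fzd5*; 3.30%) and 1 without null library 4 (*Fzd10*; 3.27%). Without wild-type library 3 and null library 2 together, chosen after seeing the data, it was 2, and the median log2 fold change of the members was 0.048 in place of -0.0078. The number of pathway genes with p under 0.05, 3 with all libraries, ran from 2 to 5, with 5 without wild-type library 1 (*Rspo3* and *Tbx3* added). The sign of the log2 fold change of *Wnt11* (-0.032 to 0.039 over single libraries left out), *Lrp6* (-0.024 to 0.026, and 0.024 without both libraries named) and *Lef1* (-0.0058 to 0.23) changed, and 10 of the 23 members changed sign in this way in all. The cause was not tested. By the longest transcript in place of merged exons, the leading 3 of each role held 12 of the same 14 members, with *Wnt5b* ahead of *Wnt4* and *Lef1* ahead of *Axin2*. No paired analysis was possible because the recovered libraries carry no replicate number. A mean under 10 and the lack of a spread for means over 1000 limit what could be tested.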

Other observations

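Wild-type library 1 and null library 2 shared extreme values of many genes, several Wnt genes among them, a pattern seen in the data and given as values with no test. They held the lowest values of all 10 libraries for *Lef1* (150 and 147), *Fzd6* (179 and 179) and *Wnt16* (28.7 and 29.2), 3 of the 23 members. Over all genes tested this pair held the lowest values for 8.33%, and each of the other 24 pairs of a wild-type and a null library for at most 3.08%. The pair also held the highest values for 7.51% of all genes, against at most 3.57% for the other pairs, and for 0 of the 23 members, so over all genes the sharing ran both ways. Among genes outside the members, *Apcdd1*, a membrane inhibitor of Wnt signals, stood at 266 and 267 in this pair and at 376 to 445 in the other 8 libraries. *Matn4*, a cartilage matrix gene, stood at 46.1 and 42.2, against 88.6 to 124. Only pairs of a wild-type and a null library were compared, so every pair held both genotypes. Whether such sharing follows genotype was not tested. Leaving out wild-type library 1 moved the log2 fold change of *Lef1* to -0.0058 and leaving out null library 2 moved it to 0.23.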
